A study of Mus musculus with 96 samples.

Results

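Of the 14 heart libraries of this mouse series, 10 were compared, chosen by their measured level of Pdk4: the 5 with the highest level against the 5 with the lowest, out of 96 libraries in all. A level is given throughout in CPM, the counts of a gene scaled to the total of its library. Pdk4 stood at 3205, 3044, 2354, 2327 and 2245 CPM in heart libraries 8, 10, 9, 12 and 6, the high-Pdk4 side. It stood at 303, 214, 164, 155 and 128 CPM in heart libraries 11, 13, 1, 15 and 14, the low-Pdk4 side. Values per library are given in these 2 orders below. The remaining 4 libraries, numbers 5, 7, 4 and 3, lay between at 1776, 894, 529 and 385 CPM. The last library inside the high side thus had 2245 CPM and the first outside it 1776 CPM. On the low side the last inside had 303 CPM and the first outside 385 CPM. The measured level of Pdk4 chose the sides, so its own difference is a description and carries no test.

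The series profiled tissues of 2 month-old mice by RNA sequencing of bulk RNA from frozen tissue. Heart samples came 3 each from 4 strains that carry reprogramming factors, named 4Fj, 4FsB, 4Fk and 4FsA, and 2 from WT controls. The deposited columns name a tissue and a running number, so the genotype of each heart library is not known here, and since no genotype has more than 3 hearts, each side of 5 holds at least 2 genotypes. The labels name neither the promoter that drives the transgenes nor an inducing agent. Nothing in the labels says which libraries come from separate animals, so the p-values measure the spread between these libraries.

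Pdk4 encodes a mitochondrial kinase that phosphorylates the pyruvate dehydrogenase complex and shuts it down, which keeps pyruvate from glucose out of the citric acid cycle. In heart muscle the gene is known to be induced by fasting, by fatty acids acting through the nuclear receptor PPAR-alpha, by FoxO factors when insulin is low, and by glucocorticoids. Its level is therefore commonly read beside genes of fatty acid use, of the FoxO programme and of stress hormones, which are the groups described here.

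**Figure D1:**
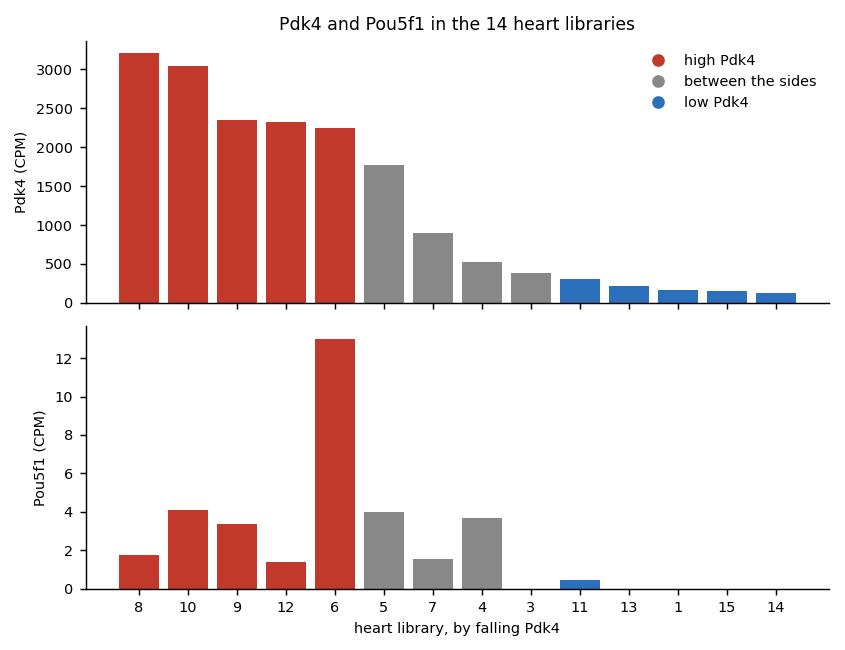
Level of Pdk4 (top) and of Pou5f1 (bottom) in each of the 14 heart libraries, in CPM, ordered by falling Pdk4; colour gives the side. Pdk4 spans 3205 to 128 CPM, and Pou5f1 is at 1 CPM or more in the 5 high libraries and in 3 of the 4 between, and at most 0.44 CPM on the low side.

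All 10 libraries were of heart by their markers. Myh6, the main myosin heavy chain of the adult mouse heart, stood at 16788, 14203, 11602, 13946 and 19634 CPM on the high side and 10156, 21815, 10605, 19096 and 18936 CPM on the low side. Library totals ran over the 14 libraries from 9168080 to 13827205 counts. Counts of mitochondrially encoded genes made up 29.6% to 31.0% of each high library and 30.4% to 40.2% of each low library, with libraries 13 and 14 the highest. Library 1, on the low side, held 0 counts of the Y-linked genes Ddx3y, Eif2s3y, Kdm5d and Uty, which the other 13 libraries all carried. Of 5 equal groups of genes by transcript length, the shortest had a median log2 fold change of -0.16, against 0.07 to 0.12 in the other 4, and the part of transcript length in the results was not tested.

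Across 13302 genes tested besides Pdk4, 72 were higher in the high-Pdk4 libraries (0.541% of genes) and 95 were lower (0.714%) at an adjusted p below 0.05 in edgeR's quasi-likelihood test. At an unadjusted p below 0.05 the number was 3402 (25.6%). Without any test, 563 genes (4.23%) had all 5 high libraries above all 5 low ones and 167 (1.26%) had all 5 below. The median log2 fold change of all genes was -0.02. Throughout, a log2 fold change is high over low Pdk4 with its standard error, and a gene that rose or fell is one that passed this test.

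The number called rested on single libraries. Without library 11 the counts were 1890 higher (13.9% of 13560 genes) and 1541 lower (11.4%), and without library 1 they were 204 and 472. Leaving out library 8 gave 39 higher and 23 lower, library 6 gave 7 and 3, and library 9 gave 6 and 3. Libraries 10, 12, 13, 14 and 15, each left out in turn, gave 1 higher gene and at most 1 lower. The signs changed less than the calls. The 39 called genes that the naming rule picked kept their sign in all 10 of these fits, with adjusted p-values no higher than 0.136. They were picked as called with all 10 libraries in, some also for sides that do not overlap, so the choice itself favours a kept sign. Rasgef1b, a guanine nucleotide exchange factor gene picked as the most like Pdk4, was called in all 10, and Fbxl22 in 7. Since Pdk4 set the sides, picking Rasgef1b by its likeness to Pdk4 in the same libraries favours these calls. Of the others, 16 were called in 2 of the 10 fits, 13 in 3, 5 in 4 and 3 in 5. Acot1, Acot2, Ehhadh and Plin5, described below, were among those called in 2.

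The split by Pdk4 was also a split by the reprogramming factor Pou5f1. Pou5f1 (Oct4), a transcription factor of pluripotent cells that adult heart does not use, stood at 1.77, 4.11, 3.38, 1.4 and 13.01 CPM on the high side and 0.44, 0, 0, 0 and 0 CPM on the low side. It rose by 5.42 ± 1.03 on the log2 scale (adjusted p = 0.0406), with 4 low libraries at a count of 0, which allows up to 0.226 to 0.277 CPM (3 counts), so this fold depends on how the fit treats 0. Myc, the proto-oncogene and a second factor of the reprogramming set, stood at 17.97, 25.1, 12.7, 27.96 and 44.5 CPM on the high side and 7.48, 3.05, 5.19, 2.19 and 2.96 CPM on the low side and rose by 2.58 ± 0.42 (adjusted p = 0.039). Klf4 was at 90.3, 113, 87.2, 139 and 105 CPM on the high side and 65.3, 54.1, 58.3, 38.1 and 62.5 CPM on the low side, with every high library above every low one (0.93 ± 0.22, adjusted p = 0.0556). Sox2 was at 2.23, 4.81, 3.49, 1.12 and 10.3 CPM on the high side and 1.39, 0.277, 0, 0 and 0.48 CPM on the low side (adjusted p = 0.0777). A difference that follows Pdk4 and a difference that follows the level of the factors cannot be told apart in these 10 libraries. With log2 Pdk4 fitted over all 14 libraries, 1202 genes were higher (8.7%) and 1232 lower (8.92%), and with a term for Pou5f1 at 1 CPM or more added to that fit, 1 and 0 in edgeR, or 986 and 691 at an unadjusted p below 0.05.

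Genes that PPAR-alpha is known to switch on in muscle and liver had the most called members of the fuel lists, and were the largest of these lists. Of 31 tested list members, 5 rose, where 0.541% of all genes did, and none fell. All gene lists used here were chosen with earlier results of these data known. Their comparison with all genes is therefore a description, here and below. For 14 of them all 5 high libraries lay above all 5 low ones, against 4.23% of all genes. The median log2 fold change of the list was 1.02, against -0.02 for all genes, and 29 of 31 were above 0. Members such as Hadha, Hadhb, Ehhadh, Acot1, Acot2 and Plin5 are also on the lists of fat handling below, so the counts of these lists overlap. Slc25a34, an orphan mitochondrial carrier, stood at 366, 236, 434, 234 and 263 CPM on the high side and 126, 74.6, 89.8, 110.3 and 77.7 CPM on the low side (1.66 ± 0.24, adjusted p = 0.0257). Plin5, the perilipin that coats lipid droplets next to mitochondria, stood at 232, 146, 214, 142 and 201 CPM on the high side and 115, 52.4, 81.03, 83.9 and 48.1 CPM on the low side (1.26 ± 0.27, adjusted p = 0.0478). In both genes no high library reached down to the low side. Acot1, a cytosolic acyl-CoA thioesterase, had 171, 111, 191, 116 and 73.1 CPM on the high side and 58.03, 9.27, 10.2, 11.96 and 9.79 CPM on the low side (2.67 ± 0.58, adjusted p = 0.0494). Its low side was split, with library 11 at 58.03 CPM and the other 4 at 9.27 to 11.96 CPM. Acot2, the mitochondrial thioesterase beside it, had 221, 187, 229, 153 and 99.6 CPM on the high side and 87.6, 43.4, 49.3, 47.4 and 25.8 CPM on the low side (1.78 ± 0.35, adjusted p = 0.0437). Acot1 and Acot2 are near-identical copies, so counts may be shared between them. Ehhadh, the bifunctional enzyme of peroxisomal beta-oxidation, had 41.4, 21.6, 44.2, 15.7 and 28.1 CPM on the high side and 11.1, 8.42, 3.04, 12.1 and 8.87 CPM on the low side (1.77 ± 0.36, adjusted p = 0.0471). The 3 most abundant members did not pass: Fabp3, the fatty acid binding protein of heart, had a median of 2330.3 CPM on the high and 2063 CPM on the low side, Cd36, the fatty acid translocase, 1920.2 CPM on the high and 936 CPM on the low side, and Ech1 1513 CPM on the high and 1017 CPM on the low side.

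The promoters of Pdk4, Slc25a34 and Plin5 are shown. Pdk4 set the sides, and Slc25a34 and Plin5 are the called genes of the list above whose windows hold the marked motif. Each window runs from 250 bases before to 50 bases after the gene start, on the gene's strand, from RefSeq on GRCm38.p6. Capitals mark the nuclear receptor half-site AGGTCA, searched on both strands, which 12.5% of the 12821 windows of tested genes hold. The Pdk4 window holds no match, the Slc25a34 window holds 1 and each of 2 Plin5 windows holds 1, of which the first is shown, and the windows of Acot1, Acot2 and Ehhadh hold none. AGGTCA was chosen for display after 10 motifs had been searched in these windows, none of which matched in the Pdk4 window. The other 9, with their share of the windows of tested genes, were the direct repeat of the half-site known as DR1 (0.039%), GTAAACA (2.58%), TGACGTCA (2.85%), TGACGT (11.1%), CACGTG (9.78%), TGAGTCA (3.66%), GGGCGG (61.7%), one serum response element (0.0234%) and TTGCGCAA (0.273%). AGGTCA lies within DR1 and TGACGT within TGACGTCA. A match is a description of the letters and not a binding site.
Pdk4 (chr6:5496229-5496528, minus strand): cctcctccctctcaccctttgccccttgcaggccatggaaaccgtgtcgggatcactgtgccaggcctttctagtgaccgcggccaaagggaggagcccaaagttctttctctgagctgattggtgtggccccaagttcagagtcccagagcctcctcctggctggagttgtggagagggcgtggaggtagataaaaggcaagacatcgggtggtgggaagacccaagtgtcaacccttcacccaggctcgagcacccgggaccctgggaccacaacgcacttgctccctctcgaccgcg
Slc25a34 (chr4:141623785-141624084, minus strand): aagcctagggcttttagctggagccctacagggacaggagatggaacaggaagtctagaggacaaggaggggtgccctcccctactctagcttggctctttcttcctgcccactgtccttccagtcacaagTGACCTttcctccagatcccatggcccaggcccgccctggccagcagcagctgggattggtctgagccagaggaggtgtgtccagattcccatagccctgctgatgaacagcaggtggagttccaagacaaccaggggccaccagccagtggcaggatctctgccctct
Plin5 (chr17:56117499-56117798, minus strand): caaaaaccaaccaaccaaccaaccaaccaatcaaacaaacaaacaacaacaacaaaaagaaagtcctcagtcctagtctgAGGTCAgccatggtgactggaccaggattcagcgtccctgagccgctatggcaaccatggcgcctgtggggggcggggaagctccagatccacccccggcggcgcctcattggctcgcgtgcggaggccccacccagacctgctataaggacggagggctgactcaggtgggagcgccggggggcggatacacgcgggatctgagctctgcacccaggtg

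**Figure D2:**
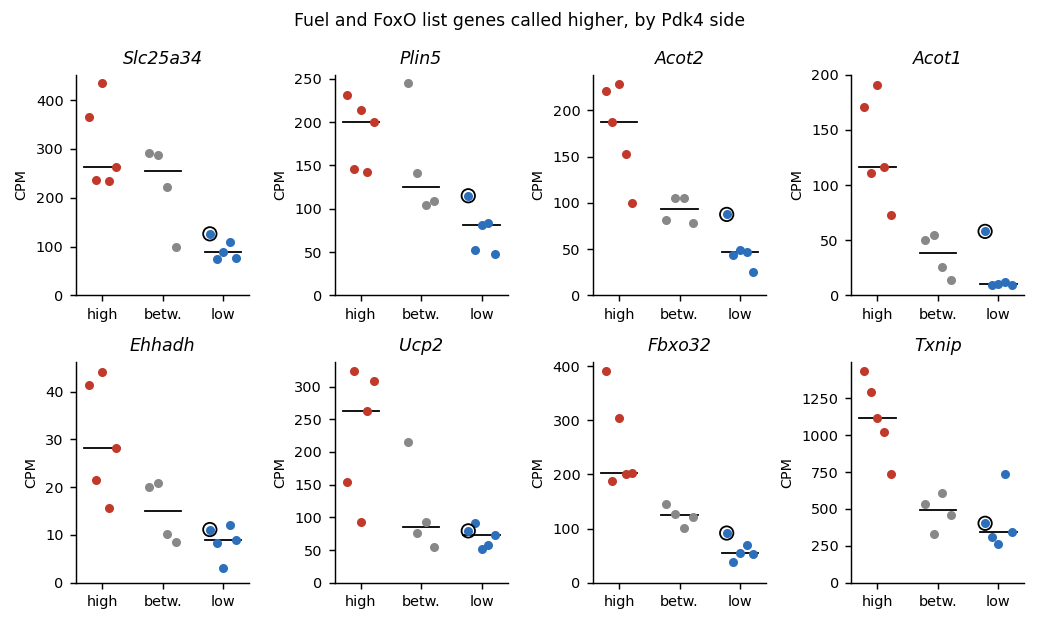
Level in CPM of 8 called genes in the 5 high (left), 4 between and 5 low libraries (right); each point is a library, lines are medians, and the circled point is library 11. For Acot1 the low side splits into library 11 at 58.0 CPM and 4 libraries at 9.27 to 11.96 CPM.

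Genes of mitochondrial beta-oxidation, which shorten fatty acids inside the mitochondrion, were higher in the high-Pdk4 libraries by fold change without passing the test. Of 21 tested, none was called, yet 11 had all 5 high libraries above all 5 low ones (all genes, 4.23%) and the median log2 fold change was 0.85. Hadha, the alpha subunit of the trifunctional protein, stood at 1653, 1823, 1979, 1575 and 1304 CPM on the high side and 1226, 379, 720.5, 896 and 447 CPM on the low side (1.17 ± 0.32, adjusted p = 0.0754). Hadhb, its beta subunit, had a median of 1596 CPM on the high and 803 CPM on the low side (adjusted p = 0.095). For both genes library 11 was the highest of the low side. Without library 11, 16 of the 21 were called higher and 1 lower, where 13.9% and 11.4% of all genes were. Leaving out the low library nearest to the high side favours such calls. Hadha and Hadhb were each called in 1 of the 10 fits with 1 library left out.

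The remaining steps of fat handling had few called members, all of them higher, where 0.541% of all genes were. In triglyceride storage and lipolysis, Plin5 was the called member of 15, with a median of 0.78. Pnpla2, the adipose triglyceride lipase, did not pass although the sides did not overlap, with 1185, 1116, 1215, 1234 and 975 CPM on the high side and 908, 228, 206, 369 and 235 CPM on the low side (1.52 ± 0.41, adjusted p = 0.0729). Library 11 stood at 908 CPM, near the high side, and the other 4 low libraries at 206 to 369 CPM. Among 14 peroxisomal genes Ehhadh rose and the median was 0.59. Crat, carnitine acetyltransferase, had medians of 615 CPM on the high and 262 CPM on the low side and did not pass. Fatty acid uptake and activation had 0 of 14 called and a median of 0.33; Lpl, the lipoprotein lipase, had medians of 6986 CPM on the high and 3064 CPM on the low side. None of 6 ketone genes was called (median 0.41), and Acat1 had medians of 545 CPM on the high and 237 CPM on the low side. Of 9 thioesterases, Acot1 and Acot2 were called and the median was 0.19.

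Genes of glucose uptake and glycolysis had a median near that of all genes, and glycogen genes had a higher median. Of 22 genes of glucose uptake and glycolysis, 1 fell and none rose, where 0.714% and 0.541% of all genes did. The median was 0.01. The gene that fell was Pgam2, the muscle phosphoglycerate mutase, with 216, 140.2, 225, 152 and 258 CPM on the high side and 193, 702, 514, 559 and 613 CPM on the low side (-1.38 ± 0.30, adjusted p = 0.0477). Library 11 overlapped the high side at 193 CPM. Gapdh had medians of 2859 CPM on the high and 3081 CPM on the low side, Aldoa 2353 CPM on the high and 2516 CPM on the low side and Ldhb 1259 CPM on the high and 1095 CPM on the low side, with overlapping sides in each. None of 13 glycogen genes was called (median 0.47); Pygm, the muscle glycogen phosphorylase, had medians of 1405 CPM on the high and 803 CPM on the low side.

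The other genes around pyruvate dehydrogenase were not called either. Of 13 tested, none passed and the median was 0.54. Pdk2, the other main kinase of the complex in heart, stood at 648, 481, 673, 575 and 515 CPM on the high side and 626, 222, 278, 382 and 191 CPM on the low side (0.74 ± 0.32, adjusted p = 0.177). Pdha1, the catalytic alpha subunit that the kinases phosphorylate, stood at 996, 1035, 990.1, 1058 and 876 CPM on the high side and 1050.1, 226, 488, 507 and 232 CPM on the low side (0.95 ± 0.40, adjusted p = 0.164). In both, library 11 was level with the high side and the other 4 low libraries lay below it. Without library 11 the fold changes were 1.14 for Pdk2 (adjusted p = 0.00437) and 1.48 for Pdha1 (adjusted p = 0.00421). Taking out the library that lay against the difference favours such calls. Of the 10 fits with 1 library left out, only this 1 called either gene. The adjusted p reached 0.352 for Pdk2 and 0.318 for Pdha1.

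Genes of amino acid breakdown and of the citric acid cycle had the same layout. All 14 tested genes of branched-chain amino acid breakdown had a fold change above 0 (median 0.76), and none passed. Ivd, isovaleryl-CoA dehydrogenase of leucine breakdown, stood at 515, 530.4, 554, 599 and 493 CPM on the high side and 541, 146, 91.7, 241 and 164 CPM on the low side (adjusted p = 0.124). Of 17 citric acid cycle genes none passed and the median was 0.51. For Ivd, library 11 lay within the high range. Without library 11, 11 of 14 and 11 of 17 members of these lists were called higher and none lower, where 13.9% and 11.4% of all genes were. Removing a low library that lay with the high side favours such calls. Ivd was called in 1 of the 10 fits with 1 library left out.

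The respiratory chain leaned the other way. Of 30 nuclear-encoded subunits none was called, and the median was -0.41. Cox4i1, a subunit of cytochrome c oxidase, stood at 1212, 1176, 1194, 1201 and 1308 CPM on the high side and 1219, 1908, 1798, 1721 and 1649.6 CPM on the low side (-0.45 ± 0.16, adjusted p = 0.123). Atp5b, the beta subunit of ATP synthase, lay the opposite way at medians of 4876 CPM on the high and 3509 CPM on the low side. These are short transcripts, with a median of 1483 bases over the list, and so stand beside the length difference given above. The 13 mitochondrially encoded genes had a median of -0.11 with none called. Of 4 uncoupling proteins and nucleotide carriers, Ucp2, a mitochondrial carrier first known as an uncoupling protein, rose to 154, 324, 92.2, 263 and 309 CPM on the high side, against 79.4, 91.9, 51.7, 57.3 and 73.5 CPM on the low side (1.69 ± 0.34, adjusted p = 0.0471). Ucp2 was the 1 called of these 4, where 0.541% of all genes rose. Slc25a4, the main adenine nucleotide carrier of heart, had medians of 3815 CPM on the high and 4039.9 CPM on the low side.

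Among 28 regulators of fuel use 1 rose, where 0.541% of all genes did, and the median was 0.25. It was Txnip, an inhibitor of glucose uptake, at 1438, 1289, 1117, 1023 and 735 CPM on the high side and 403, 313, 263, 740.1 and 345 CPM on the low side (1.45 ± 0.29, adjusted p = 0.0458). The sides touched, since library 15 of the low side stood above library 6 of the high side. Esrra, the estrogen-related receptor that drives mitochondrial genes, had medians of 121 CPM on the high and 136 CPM on the low side. Of 16 insulin signalling genes none passed (median 0.41). Pik3r1, the regulatory subunit of PI3 kinase, stood at 157, 180.4, 148, 173 and 169 CPM on the high side and 259.7, 32.3, 40.7, 48.8 and 27.01 CPM on the low side (adjusted p = 0.313). Library 11 had the highest Pik3r1 of all 10, and without it the fold change was 2.19 (adjusted p = 0.000195). Taking out the library that lay against the difference favours such a call. Of the 10 fits with 1 library left out, only this 1 called Pik3r1, and the adjusted p reached 0.520.

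**Figure D3:**
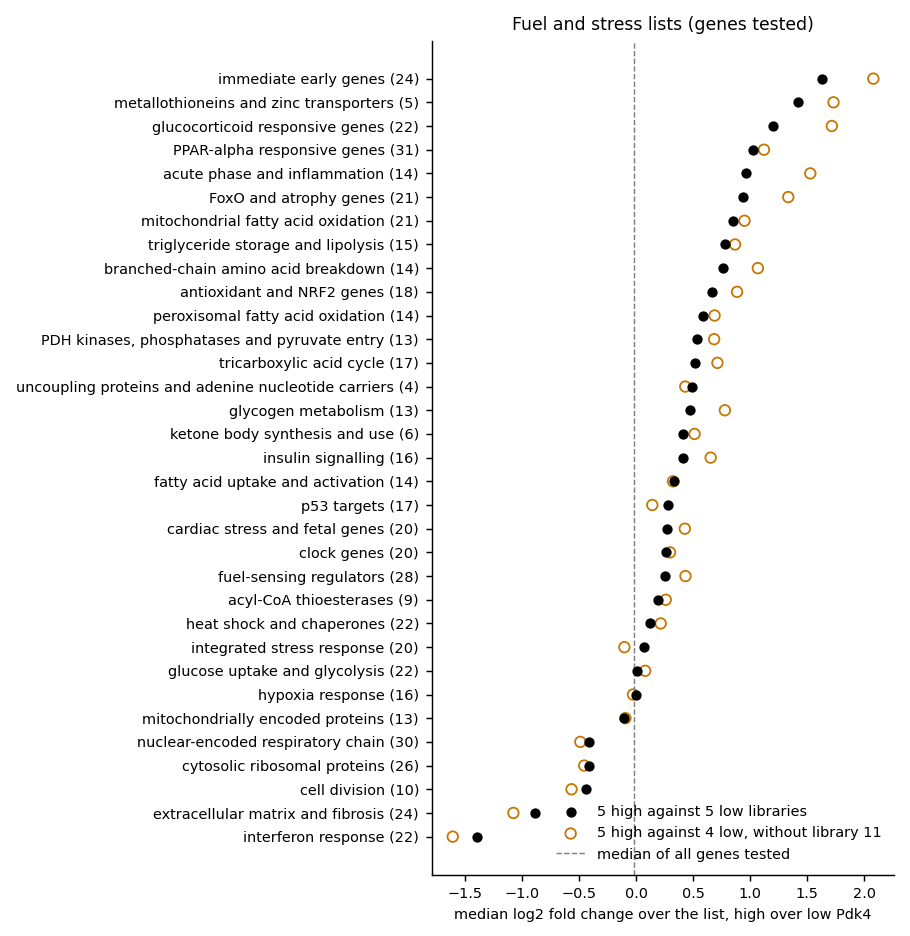
Median log2 fold change, high over low Pdk4, of each fuel and stress list, with the genes tested in brackets; filled points use all 10 libraries, open points leave out library 11, and the dashed line is the median of all genes. Immediate early genes lie highest at 1.63 and interferon response genes lowest at -1.39.

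FoxO targets and atrophy genes, which are switched on in muscle when insulin signalling is low, all leaned up. Of 21 tested, 4 rose, where 0.541% of all genes did, and none fell. All 21 had a fold change above 0 and the median was 0.94. Fbxo32 (atrogin-1), the muscle ubiquitin ligase that marks atrophy, stood at 390.4, 188, 304, 201 and 203 CPM on the high side and 91.8, 37.5, 54.1, 70.4 and 53.9 CPM on the low side (2.04 ± 0.29, adjusted p = 0.0257). Cited2, a CBP/p300-binding regulator, stood at 155, 96.6, 132, 102 and 96.5 CPM on the high side and 53.4, 14.1, 19.5, 42.0 and 17.9 CPM on the low side (1.96 ± 0.37, adjusted p = 0.0406). The sides of both genes were apart. Ccng2, a cyclin that FoxO factors induce, had 33.1, 16.6, 32.5, 23.9 and 31.9 CPM on the high side and 16.8, 15.1, 12.5, 13.9 and 12.6 CPM on the low side (0.94 ± 0.20, adjusted p = 0.0497), with library 10 of the high side just under library 11 of the low side. Txnip, given above, was the fourth. Sqstm1, the autophagy receptor p62, did not pass at medians of 757 CPM on the high and 302 CPM on the low side.

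Glucocorticoid responsive genes had 0 of 22 called but a median of 1.20, with library 11 level with the high side for many of them. Glul, glutamine synthetase, stood at 958, 852, 854, 939.5 and 889 CPM on the high side and 1009, 119, 392.1, 173 and 127 CPM on the low side (1.24 ± 0.56, adjusted p = 0.188). The metallothionein Mt1, which glucocorticoids and zinc induce, stood at 380.4, 1135, 372, 1223 and 838 CPM on the high side and 437, 186, 116, 102 and 104 CPM on the low side (2.03 ± 0.53, adjusted p = 0.0679). Mt2 stood at 71.04, 595, 85.8, 577 and 384 CPM on the high side and 108, 25.2, 19.5, 11.3 and 11.6 CPM on the low side (3.24 ± 0.84, adjusted p = 0.0674). Both metallothioneins were far higher in libraries 10, 12 and 6 than in libraries 8 and 9 within the high side. In summed CPM of the 22 genes the high side ran from 3185 to 5669, library 11 stood at 3615 and the other 4 low libraries from 811 to 1162. Without library 11, 17 of the 22 were called higher and none lower, where 13.9% and 11.4% of all genes were. Removing the low library that was level with the high side favours such calls. Glul, Mt1 and Mt2 were each called in 1 of the 10 fits with 1 library left out.

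**Figure D4:**
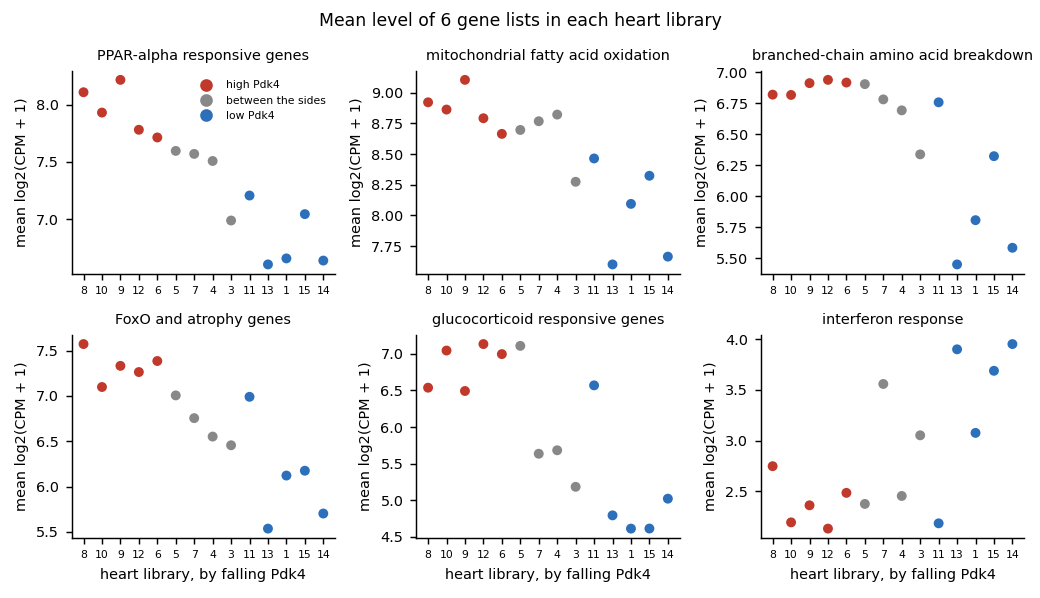
Mean log2(CPM + 1) of 6 gene lists in each heart library, ordered by falling Pdk4 and coloured by side. Library 11 lies within or near the high side for glucocorticoid, amino acid, FoxO and interferon genes, and between the sides for PPAR-alpha genes.

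Immediate early genes, the transcription factors that cells switch on within minutes of a stimulus, had the highest median of the fuel and stress lists. Of 24 tested, 4 rose, where 0.541% of all genes did, and none fell. All 24 were above 0 and the median was 1.63. Fos, a subunit of AP-1, stood at 8.75, 44.3, 84.4, 214 and 30.05 CPM on the high side and 2.86, 0.647, 8.95, 1.89 and 3.84 CPM on the low side (4.42 ± 0.88, adjusted p = 0.0458). Junb, its partner, stood at 48.1, 179.7, 122, 347 and 104 CPM on the high side and 24.04, 19.98, 37.5, 20.4 and 21.2 CPM on the low side (2.72 ± 0.48, adjusted p = 0.0394). Fosl2, another member of the family, stood at 82.96, 168, 131, 243 and 76.8 CPM on the high side and 44.7, 19.1, 41.4, 13.9 and 32.6 CPM on the low side (2.21 ± 0.43, adjusted p = 0.0431). Within the high side library 12 was the highest for all 3, and Fos in library 8 lay below Fos in library 1 of the low side. Myc, given with the factors and itself a gene of the reprogramming set, was the fourth. Jund had medians of 211 CPM on the high and 151 CPM on the low side and Klf2, an endothelial flow-responsive factor, 109.9 CPM on the high and 101 CPM on the low side, and neither passed.

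**Figure D5:**
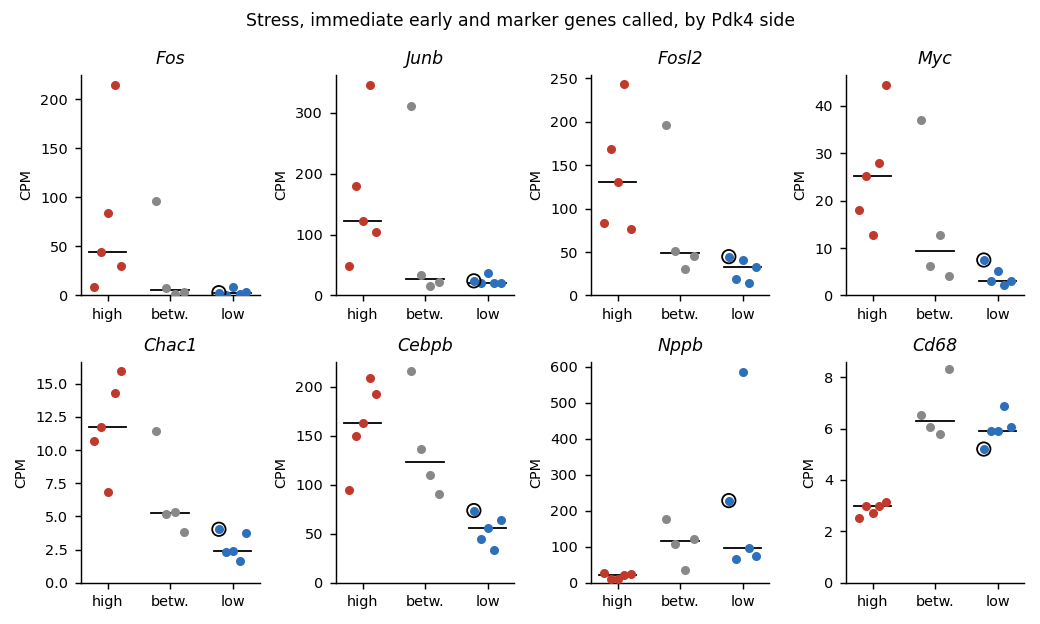
Level in CPM of 8 called genes in the 5 high (left), 4 between and 5 low libraries (right); each point is a library, lines are medians, and the circled point is library 11. Nppb and Cd68 are lower in all 5 high libraries, and Fos spans 8.75 to 214 CPM within the high side.

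The lists of the integrated stress response, of acute phase genes and of antioxidant genes each held 1 called gene. In each case it was higher, where 0.541% of all genes were. Of 20 genes of the integrated stress response, which follows phosphorylation of eIF2-alpha, Chac1 rose and the list median was 0.07. Chac1, a glutathione-degrading enzyme, stood at 10.7, 11.7, 6.87, 14.3 and 15.9 CPM on the high side and 4.03, 2.31, 2.42, 1.66 and 3.76 CPM on the low side (2.05 ± 0.32, adjusted p = 0.0257). Ddit4 (REDD1), an inhibitor of mTORC1, had non-overlapping sides at 198, 258, 243, 260.2 and 264 CPM on the high side and 169, 16.9, 52.4, 13.8 and 32.9 CPM on the low side without passing (2.04 ± 0.62, adjusted p = 0.0877). Atf4, the central factor of the response, had medians of 83.3 CPM on the high and 68.6 CPM on the low side. Cebpb, a factor of the acute phase, rose to 94.6, 149, 163, 209 and 192 CPM on the high side, against 73.7, 45.04, 55.8, 32.95 and 64.02 CPM on the low side (1.56 ± 0.28, adjusted p = 0.0394), as the 1 called of 14 (median 0.96). Serpina3n, a secreted acute phase inhibitor, stood at 106, 422, 94.3, 312 and 245 CPM on the high side and 108, 5.27, 14.7, 5.43 and 4.4 CPM on the low side (adjusted p = 0.0942). Library 11 stood at 108 CPM, inside the high range, and the other 4 low libraries at 4.40 to 14.7 CPM. Among 18 antioxidant genes Ucp2 rose (median 0.66); Cat, catalase, had medians of 516 CPM on the high and 128 CPM on the low side (adjusted p = 0.0747).

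Several stress lists held no called gene. These were 22 heat shock genes (median 0.12), 16 hypoxia genes (0.00), 17 p53 targets (0.28), 20 clock genes (0.26), 5 metallothionein and zinc transporter genes (1.42) and 10 cell division genes (-0.44). Cryab, a small heat shock protein of heart muscle, had all 5 high libraries below the low ones at 907, 998, 854, 972 and 999 CPM on the high side and 1371, 1223, 1703, 1389 and 1105 CPM on the low side (adjusted p = 0.107). Bnip3, a mitophagy receptor of the hypoxia list, had medians of 632 CPM on the high and 84.1 CPM on the low side with library 11 at 723 CPM. Vegfa, of the same list, lay the opposite way at medians of 128 CPM on the high and 338 CPM on the low side (-1.37 ± 0.41, adjusted p = 0.0866). Cdkn1a (p21), a p53 target, had 293 CPM on the high and 19.4 CPM on the low side with library 11 at 220.3 CPM. Per1, a clock gene that glucocorticoids induce, had 179 CPM on the high and 75.5 CPM on the low side. Of 26 cytosolic ribosomal protein genes, which are short, none passed; 25 had a fold change below 0, the median was -0.41, and 6 had all 5 high libraries below all 5 low ones, where 1.26% of all genes did.

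Interferon response genes leaned down as a whole list. Of 22 tested, none passed and none had a fold change above 0, and the median was -1.39. Ly6e, an interferon-induced surface protein, stood at 127, 66.5, 106, 71.2 and 105 CPM on the high side and 80.7, 166, 199, 249.5 and 233 CPM on the low side (-0.96 ± 0.27, adjusted p = 0.0773). In summed CPM of the list the high side ran from 186 to 301, library 11 stood at 188 and the other 4 low libraries from 421 to 687. Without library 11, 18 of the 22 were called lower and none higher, where 11.4% and 13.9% of all genes were. Removing the low library that lay with the high side favours such calls. Ly6e was called in 1 of the 10 fits with 1 library left out.

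Of the markers of cardiac strain, Nppb (brain natriuretic peptide) fell and the other 19 tested were not called, where 0.714% of all genes fell. The list did not lean down as a whole: its median was 0.27, and 12 of 20 had a fold change above 0. Nppb stood at 25.7, 9.8, 9.38, 22.1 and 23.4 CPM on the high side and 228, 66.2, 584, 96.7 and 74.7 CPM on the low side (-3.58 ± 0.65, adjusted p = 0.0394). Every high library was below every low one, and library 1 was the highest. Actc1, cardiac actin, had medians of 1952 CPM on the high and 5257 CPM on the low side (-1.32 ± 0.34, adjusted p = 0.0676). Myh7, the slow myosin heavy chain of the fetal and strained mouse heart, ran from 228 to 8443 CPM on the high side and from 110 to 15872 CPM on the low side, with library 11 the highest. Of 24 extracellular matrix genes 1 fell, where 0.714% of all genes did, and the median was -0.89. It was Col15a1, a basement membrane collagen, at 11.7, 5.42, 6.33, 5.03 and 6.96 CPM on the high side and 2.27, 46.9, 111, 85.2 and 70.8 CPM on the low side (-3.15 ± 0.68, adjusted p = 0.0494), with library 11 below the whole high side. Dcn and Col4a1, which are more abundant, had medians of 466 CPM on the high and 322 CPM on the low side and 439 CPM on the high and 364 CPM on the low side.

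Markers of other cell types moved with the sides, and in bulk tissue fewer cells of a type and less RNA per cell cannot be told apart. Red cell genes had the lowest median of the marker lists, at -3.45, with 1 of 6 tested called, where 0.714% of all genes fell. The summed CPM of 9 red cell markers ran from 52.2 to 409 on the high side, stood at 160 in library 11 and ran from 1561 to 3604 in the other 4 low libraries. Hba-a1, an alpha-globin gene with a near-identical copy, fell to 92.2, 22.3, 60.99, 9.25 and 24.9 CPM on the high side, against 36.8, 422, 791, 365 and 696 CPM on the low side (-3.47 ± 0.75, adjusted p = 0.0496). Summed macrophage markers ran from 171 to 267 CPM on the high side and from 174 to 494 CPM on the low side, with library 11 the lowest of the low side. Of 12 tested, Cd68, a lysosomal glycoprotein of macrophages, named after its values were seen, fell to 2.51, 2.97, 2.73, 2.98 and 3.13 CPM on the high side, against 5.2, 5.92, 5.91, 6.86 and 6.07 CPM on the low side (-1.06 ± 0.21, adjusted p = 0.0425). The complement gene C1qa had medians of 34.4 CPM on the high and 45.7 CPM on the low side and did not pass. Kdr, the VEGF receptor of endothelium, fell as 1 of 15 endothelial markers, to 57.6, 48.3, 48.2, 47.8 and 38.3 CPM on the high side, against 81.9, 179, 188, 184 and 184 CPM on the low side (-1.75 ± 0.23, adjusted p = 0.0177). Aqp1 and Fabp4, the most abundant endothelial markers, had medians of 671 CPM on the high and 437 CPM on the low side and 252 CPM on the high and 670.3 CPM on the low side.

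Heart muscle markers were close between the sides in sum. The 17 cardiomyocyte markers summed to 45306.5 to 58610.0 CPM on the high side and to 51298 to 64688 CPM on the low side. Of these markers 2, Myl2 and Tnnc1, fell, where 0.714% of all genes did. Myl2, the ventricular light chain, stood at 2982, 2527, 2716, 2329 and 3247 CPM on the high side and 2782, 6298, 6598, 6695 and 6168 CPM on the low side (-1.05 ± 0.22, adjusted p = 0.0477), and library 11 lay within the high range. Tnnc1, the cardiac troponin C, stood at 897, 633, 694, 638 and 1001 CPM on the high side and 928, 1689.7, 1788, 1809 and 1660.1 CPM on the low side (-1.03 ± 0.21, adjusted p = 0.0458). Atrial markers summed to 258 to 2730 CPM on the high side and to 372 to 672 CPM on the low side. Myl4, the atrial light chain, was at 46.6, 1.92, 16.03, 57.97 and 498 CPM on the high side and 5.64, 11.2, 78.6, 2.87 and 2.32 CPM on the low side, highest in library 6. Tbx5, a cardiac transcription factor and the called atrial-list gene, stood at 55.03, 47.6, 52.03, 49.96 and 70.3 CPM on the high side and 36.8, 11.9, 12.1, 18.7 and 11.5 CPM on the low side (1.55 ± 0.34, adjusted p = 0.0496). With the atrial level as a covariate 1 gene was called higher and 0 lower in edgeR, or 1242 and 1272 at an unadjusted p below 0.05. Fibroblast markers summed to 1272 to 2681 CPM on the high side and to 1259 to 2919 CPM on the low side. Smooth muscle and pericyte markers summed to 685 to 1013 CPM on the high side and to 777 to 1344 CPM on the low side. Neutrophil markers summed to at most 80.6 CPM on the high side, to 87.6 CPM in library 11 and to 7.77 to 13.99 CPM in the other 4 low libraries. White adipocyte markers summed to 152 to 196 CPM on the high side and to 60.5 to 121 CPM on the low side. Most of that sum in the high libraries was Lipe, the hormone-sensitive lipase, at 153, 119.7, 143, 114 and 99.9 CPM, against 90.7, 61.6, 29.99, 67.5 and 78.5 CPM on the low side (adjusted p = 0.081), while Adipoq was too low to be tested. Brown adipocyte markers summed to 657 to 805 CPM on the high side and to 716 to 1313 CPM on the low side. The part of these cell types in the fuel and stress results was not tested, and markers of lung and of thymus summed to at most 5.88 CPM in any of the 10 libraries.

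The 20 genes named by fold change among those called, with at least 5 CPM and with sides that do not overlap, held few metabolic enzymes. The 10 that were higher were Rasd1, Junb, Acot1, Myc, Itih4, Asb4, Sbk2, Lrg1, Vdac3-ps1 and Ccrl2. Rasd1, a small GTPase named for its induction by dexamethasone, stood at 19.6, 31.6, 9.49, 73.5 and 28.3 CPM on the high side and 3.22, 0.74, 2.42, 2.49 and 2.08 CPM on the low side (3.89 ± 0.55, adjusted p = 0.0257). Lrg1, a secreted acute phase glycoprotein, stood at 91.5, 199.5, 149.9, 219 and 164 CPM on the high side and 59.4, 20.8, 24.1, 40.4 and 16.8 CPM on the low side (2.34 ± 0.39, adjusted p = 0.0394). Itih4, another acute phase protein, had medians of 20.04 CPM on the high and 2.78 CPM on the low side, and Ccrl2, a chemerin-binding receptor, 42.6 CPM on the high and 9.04 CPM on the low side. Sbk2, Asb4 and the pseudogene Vdac3-ps1 were low, with medians of 11.4, 11.8 and 12.4 CPM on the high side, against 3.52, 1.91 and 1.94 CPM on the low side; the pseudogene resembles Vdac3, so its counts are uncertain. All 5 high libraries stood above the low ones in each of the 10, as the naming rule requires.

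The 10 that were lower were Nppb, Fbxl22, Lrrc15, Tspan13, Septin4, Tlcd3b, Nrp1, Tnfsf10, Kdr and Gask1b. Fbxl22, a cardiac F-box protein of the sarcomere, stood at 19.03, 10.7, 12.7, 9.38 and 20.2 CPM on the high side and 33.4, 127, 94.3, 146 and 111 CPM on the low side (-2.83 ± 0.35, adjusted p = 0.0147). Nrp1, neuropilin 1, a co-receptor of VEGF beside Kdr, stood at 19.9, 20.5, 17.3, 17.9 and 16.7 CPM on the high side and 24.5, 105, 73.7, 70.9 and 95.4 CPM on the low side (-1.98 ± 0.31, adjusted p = 0.0257). For Kdr and Nrp1 library 11 was the lowest of the low side and nearest to the high side. Tnfsf10 (TRAIL), a death ligand that interferon induces, had medians of 3.73 CPM on the high and 16.8 CPM on the low side. Tspan13 had medians of 14.5 CPM on the high and 86.5 CPM on the low side, Septin4 10.2 CPM on the high and 52.1 CPM on the low side and Lrrc15 1.96 CPM on the high and 9.9 CPM on the low side. Tlcd3b and Gask1b had 4.29 CPM on the high and 17.9 CPM on the low side and 9.93 CPM on the high and 26.9 CPM on the low side.

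Library 11 stood apart within the low side. It had low Pdk4 and 0.44 CPM of Pou5f1, but for most genes that separated the other 4 low libraries from the high side it sat with the high side. Of 1890 genes called higher without it, its level lay within the range of the high side for 1146 and above that range for 213, and within the range of the other 4 low libraries for 235. Of 1541 called lower without it, it lay within the high range for 991, below that range for 360, and within the range of the other 4 low libraries for 201. Genes in which library 11 lay outside the high range included Slc25a34, Plin5, Ehhadh, Fbxo32, Ucp2, Chac1, Junb and Cd68, as given above. Removing it fixes these genes as separating the remaining libraries, so the counts are a description.

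Over all 14 heart libraries, 4 of which the split did not use, the genes most like Pdk4 were Rasgef1b, Agpat3, Lpcat3, Fbxo32 and Cited2. Their Spearman rho with Pdk4 was 0.95, 0.94, 0.94, 0.93 and 0.93, out of 9711 genes ranked, as a description with no test. Rasgef1b stood at 22.1, 19.7, 16.4, 18.3 and 14.4 CPM on the high side, 15.8, 8.32, 13.9 and 7.02 CPM in libraries 5, 7, 4 and 3 and 5.64, 3.79, 4.03, 4.0 and 5.2 CPM on the low side. Agpat3 and Lpcat3, both acyltransferases of phospholipid synthesis, had medians of 236 CPM on the high and 134 CPM on the low side and 70.2 CPM on the high and 25.2 CPM on the low side. Fbxo32 stood at 145, 128, 102 and 122 CPM in the libraries between, which places all 4 between the sides. Library 5, with 1776 CPM of Pdk4, was nearer to the high side than to the low side in 64 of the 72 higher and 90 of the 95 lower genes. For libraries 7 and 4 these numbers were 39 and 49, and 38 and 56, and for library 3, with no Pou5f1 counts, 21 and 29. Nearness was read against the midpoint of the side medians of log2(CPM + 1).

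Skeletal muscle, which the split did not use, gave the same measure in 15 further libraries. There Pdk4 ran from 133 to 5080 CPM with a median of 612 CPM, and log2 Pdk4 was fitted as a continuous term over all 15. In this fit 20.9% of 13259 genes were called higher with Pdk4 and 17% lower. Of the 72 genes higher in heart, 67 were tested in muscle, of which 37 were called higher and 2 lower. Of the 95 lower in heart, 84 were tested, of which 2 were called higher and 45 lower. Fbxo32 rose in muscle by 1.08 ± 0.12 on the log2 scale per doubling of Pdk4 (adjusted p = 7.27e-06), and Acot1 by 1.66 ± 0.18 (adjusted p = 7.11e-06). Slc25a34 rose by 0.96 ± 0.12 (adjusted p = 1.75e-05) and Plin5 by 0.72 ± 0.12 (adjusted p = 0.000247). Cited2 at 0.11 ± 0.21, Chac1 at -0.46 ± 0.22 and Ehhadh at 0.06 ± 0.09 were not called in muscle.

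By list, 18 of 21 FoxO and atrophy genes, 17 of 31 PPAR-alpha genes, 16 of 22 glucocorticoid genes and 15 of 23 immediate early genes were called higher with Pdk4 in muscle, with 1, 1, 0 and 1 called lower. Of all genes tested in muscle, 20.9% were called higher and 17% lower. Of 19 interferon genes 15 were called lower and none higher. Of 21 mitochondrial beta-oxidation genes 8 were called higher and none lower, and of 22 glycolysis genes 3 were higher and 6 lower. Some other fuel lists had most of their muscle calls in the same direction. Triglyceride storage and lipolysis had 8 higher and 1 lower of 15, and insulin signalling 9 and 2 of 16. Regulators of fuel use had 14 higher and 4 lower of 28. The nuclear-encoded respiratory chain had 0 higher and 7 lower of 30. Further fuel lists were mixed. Of 17 citric acid cycle genes 1 was higher and 3 lower, and of 14 branched-chain genes 3 and 2. Of 12 genes around pyruvate dehydrogenase 1 was higher and 1 lower. Peroxisomal genes had 3 higher and 4 lower of 13, and thioesterases 3 and 2 of 8. Pou5f1 reached 1 CPM in 2 of the 15 muscle libraries, at 234 and 2934 CPM of Pdk4, and the other 13 spanned 133 to 5080 CPM of Pdk4. Below 1 CPM it was not always 0, and muscle library 10, with the highest Pdk4, had 0.786 CPM. Of 4 reprogramming factors tested in muscle, 2 were called higher with Pdk4 and none lower. Myc rose by 0.60 ± 0.12 per doubling of Pdk4 (adjusted p = 0.000909). The part of the factors in the muscle results was not tested. The difference between heart and muscle in any of these responses was not tested, and whether muscle and heart libraries share animals is not known.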

How the data were processed

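Bulk RNA was sequenced from mouse tissues; 14 heart and 15 skeletal muscle libraries were used. The deposited table holds estimated counts per gene for 96 libraries, made by the authors; GRCm39 and DESeq2 appear in the submitters' processing notes without a role. No aligner, counter or strand setting was stated for them. Column names give tissue and running number, so libraries were grouped by tissue only.

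Estimated counts (26.8% of those above 0 were not whole) were rounded to whole numbers. Sides were set by Pdk4 CPM. Genes were tested with edgeR 4.0.16 (TMM, filterByExpr, quasi-likelihood test) in R 4.3.3, called at a Benjamini-Hochberg adjusted p below 0.05 over all genes tested, and the script was tested on simulated data. Alternatives were DESeq2 1.42.0, no filter, other splits, covariates and libraries left out. Errors are standard errors worked back from each log2 fold change and its quasi-likelihood test statistic. They are not a direct spread of the library values. The floor of 3 counts covers counting error only.

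Gene lists (55 lists, 760 symbols, 757 in the table) and the members were chosen with earlier results of these data known. Where 3 symbols had several rows, the more abundant was used. Named genes were the 10 higher and 10 lower with the largest fold change among called genes of at least 5 CPM whose sides do not overlap, up to 5 called and the 3 most abundant members of each fuel and stress list, the most abundant markers of each cell type, and the 5 most like Pdk4; Pou5f1, Sox2, Klf4, Cd68, Tnnc1 and Tbx5, and the genes and lists shown in the plots, were picked after their values were seen. The text gives a selection of these. Transcript lengths came from GENCODE vM21 for 98.9% of tested genes.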

Additional observations from a re-analysis of the deposited data

Results flagged for a closer look

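Within each side of 5 libraries, a value was picked out when the gap of its highest or lowest library to the next, divided by the range of the side, exceeded 0.71 on the log2(CPM + 1) scale. Of 352 values so tested, 23 met this, 5 on the high side and 18 on the low side, and chance alone gives about 1 in 20. Library 11 was the library set apart in 15 of the 23.

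Library 11 stood above the other low libraries for Acot1 (ratio 0.867, 58.0 CPM), Pik3r1 (0.742, 259.7 CPM), Csrp3 (0.751, 2510.2 CPM) and S100a9, a neutrophil protein (0.929, 24.0 CPM). It stood below them for the metabolic and mitochondrial genes Acot13 (0.713, 114 CPM) and Pgam2 (0.759, 193 CPM) and for the muscle genes Myl2 (0.907, 2782 CPM) and Myl1 (0.782, 1.61 CPM). The same was seen for the vessel genes Kdr (0.944, 81.9 CPM), Nrp1 (0.729, 24.5 CPM) and Col15a1 (0.759, 2.27 CPM) and for the channel gene Cacna1g (0.718, 10.4 CPM). It was also lowest for the globins Hbb-bs (0.716, 53.5 CPM), Hba-a2 (0.728, 46.4 CPM) and Hba-a1 (0.746, 36.8 CPM).

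Library 1, the library without Y-linked counts, was set apart for Ehhadh (0.717, 3.04 CPM, lowest), Atf4 (0.895, 25.6 CPM, lowest) and Jund (0.722, 253 CPM, highest). On the high side library 6 was highest for Cox4i1 (0.716, 1308 CPM), Slc25a5 (0.798, 173 CPM) and the atrial-list gene Stard10 (0.749, 109 CPM) and lowest for Lpcat3 (0.759, 48.4 CPM). Library 12 was lowest for C1qa (0.72, 23.2 CPM). No explanation of these values was tested.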

How the results depend on the processing

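The numbers of called genes moved by over 1.5 times under most alternatives, against 72 higher and 95 lower as reported. Leaving out 1 library in turn gave 1 to 1890 higher and 0 to 1541 lower. No filter on low counts gave 171 and 192, DESeq2 649 and 990, 4 against 4 libraries 1666 and 1237, and 6 against 6 289 and 582. Log2 Pdk4 over 14 libraries gave 1202 and 1232, the Y-linked covariate 198 and 528, and the atrial covariate 1 and 0. Leaving out mitochondrially encoded genes gave 84 and 121. Of the alternatives chosen after seeing the data, leaving out libraries 1 and 11 gave 3257 and 3104, a term for Pou5f1 at 1 CPM or more over 14 libraries 1 and 0, log2 Pdk4 within the 8 libraries at or above that level 5 and 13, and within the 6 below it (library 11 at 0.44 CPM, the others at 0) 0 and 0 in edgeR (694 and 265 at an unadjusted p below 0.05). The cause was not tested; the last 2 fits also use fewer libraries. In skeletal muscle, 2776 higher and 2255 lower became 4117 and 2213 with no filter and 2830 and 2847 with DESeq2.

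Of the 39 called named genes, all kept their direction under every alternative except within the 2 Pou5f1 groups. They were picked as called in the reported fit, which favours a kept direction. Within the 6 libraries the slope per doubling of Pdk4 was -0.020 for Junb, -0.28 for Fos, -0.41 for Itih4, -0.35 for Sbk2, 0.33 for Lrrc15 and 0.062 for Kdr, and within the 8 it was 0.21 for Hba-a1, none called. Slc16a1, uncalled as reported, was called with the other sign (0.82) without libraries 1 and 11. Among 135 uncalled named genes, 174 of 2964 fits gave the other sign, again uncalled, and are not listed. No paired analysis was possible because the column names carry no replicate number of the labels. Depth (9168080 to 13827205 counts) limits genes of a few counts, such as Pou5f1 and Sox2.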
